A study of Mus musculus with 18 samples.

Results

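Translating ribosome affinity purification (TRAP) pulls down ribosomes that carry a tag, together with the mRNAs bound to them, so that the transcripts of 1 cell type can be read from whole tissue without sorting cells. The comparison described here set the TRAP-positive fraction against the input of the same brain in mice injected with lipopolysaccharide (LPS) 24 h earlier. It addressed, gene by gene, which transcripts lay in the tagged cells and which in the other cells of an inflamed brain. The libraries were chosen by their labels: all LPS animals with both a usable input and a positive library, which were animals 266, 267, 270 and 507. They gave 8 libraries of the 18 in the series, and the 8 libraries of the 4 PBS animals were used where the same contrast in uninflamed brain was needed. Another LPS animal, 271, had only 1252 counts in its input library and could not be paired.

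All animals were Cx3cr1-Cre/Ert2+; NuTRAP+ mice, in which the Cx3cr1 promoter drives a Cre recombinase that acts once tamoxifen is given. Recombination switches on the NuTRAP reporter, which adds EGFP to the ribosomal protein L10a. Every mouse, PBS animals included, received tamoxifen at about 3 months of age and then, 3 to 4 weeks later, 1 intraperitoneal injection of 5 mg/kg LPS or of phosphate-buffered saline (PBS). Of the 4 LPS animals 3 were female and 1 was male, and of the 4 PBS animals 2 were female and 2 were male. One hemisphere of each brain was homogenised, part of the cleared lysate was kept as input, and the rest was incubated with an anti-GFP antibody and beads to give the positive fraction. Tagging follows Cx3cr1, so macrophages at the borders of the brain can carry the tag as well as microglia, and the input still contains the RNA of the tagged cells. In bulk fractions of this kind, fewer cells of a type and less RNA per cell cannot be told apart.

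Microglia are the resident macrophages of the brain. They sense LPS through a receptor complex of TLR4, MD-2 and CD14, and signal through adaptors such as MyD88 to NF-kB, which drives cytokine and chemokine genes. Astrocytes, endothelial cells and perivascular cells carry receptors for those cytokines and make signalling proteins of their own, and blood leukocytes can enter or adhere to vessels during systemic inflammation.

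Total estimated counts lay between 29049525 and 35123345 in the 4 input libraries and between 23915334 and 32710275 in the 4 positive libraries of LPS animals, and 18105 to 18670 genes had a count. The cell labels were checked with defining markers. The summed normalised count of 8 microglial markers lay between 9617 and 13756 in input and between 154079 and 213613 in the positive fraction, with no overlap. The 239 genes of the study's microglia list held between 0.616% and 0.706% of all counts in input and between 3.79% and 4.54% in the positive fraction. Markers of other cells remained in the positive fraction. The summed level of 5 oligodendrocyte markers lay between 55946 and 85121 in input and between 16333 and 26693 in the positive fraction, while the 5 astrocyte markers lay between 92490 and 104443 in input and between 94195 and 112427 in the positive fraction. The 5 neuronal markers overlapped as well, at 146207 to 159720 in input and 128265 to 173190 in the positive fraction. Sums can hide single genes. By the test described below, 3 of the 5 astrocyte markers were lower in the positive fraction and 1 was higher. Of the 5 neuronal markers, 2 were higher and 0 lower.

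Across all genes, 14818 passed the filter of more than 20 normalised counts in every library of at least 1 group, and edgeR's quasi-likelihood test paired by animal called 8200 of them (55.3%) at an adjusted p under 0.05 and an absolute log2 fold change over 0.32. Higher levels in the positive fraction were called for 4099 genes (27.7%) and lower levels for 4101 (27.7%). The directions differed in size. A level over 5-fold higher was called for 559 genes (3.77%) and over 10-fold higher for 294, whereas a level over 2-fold lower was called for 749 genes (5.05%), over 5-fold lower for 12 and over 10-fold lower for 0. Of the genes called lower, 81.7% were less than 2-fold lower, and of those called higher, 63.8% were less than 2-fold higher. The fold change of the median gene was -0.04 on the log2 scale. The split between directions rested on the scaling, since 50.0% of calls were higher here and 34.9% under scaling by total count, which moved the median of all genes by -0.16. Fold changes below are edgeR's fitted log2 values of positive over input with their standard error (SE), and a value of 1 is a doubling. Per-sample values are normalised counts, meaning estimated counts divided by the size factor of the library. Positive and input libraries of LPS animals did not overlap for 7015 of the 14818 genes tested (47.3%). Among the 8200 called genes, 6329 did not overlap, so a lack of overlap was usual for a called gene.

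**Figure D1:**
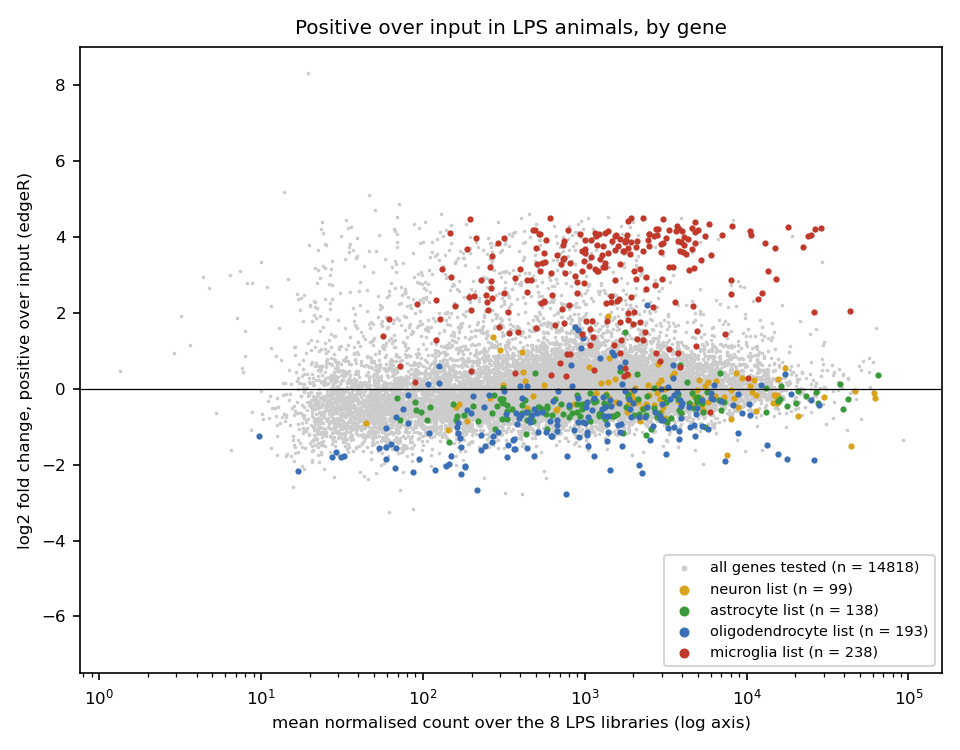
Each point is 1 of 14818 genes, with the mean normalised count over the 8 LPS libraries on a log axis and edgeR's log2 fold change of positive over input on the vertical axis. Colours mark the study's 4 cell type lists: the microglia list has a median of 3.19, and the oligodendrocyte, astrocyte and neuron lists have medians of -0.77, -0.47 and -0.18.

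Genes were ranked by fold change among those called in the same direction in all 4 animals whose normalised count averaged 100 or more over the 8 libraries. Promoters of the most enriched genes are shown here because these genes were called higher together and because the transcript of Sfpi1 (also called Spi1), which encodes the myeloid transcription factor PU.1, was 1 of them. PU.1 binds DNA around a GGAA core, and the letters GAGGAA were searched on both strands in windows from 250 bases before to 50 bases after each gene's start (RefSeq, GRCm38.p6), where capitals mark a match on either strand. Of the 12 most enriched genes, 8 matched the promoter table by gene ID, and 6 of those 8 held the letters. They were found in 28.3% of all 32851 promoter windows in the table, in 30.6% of the 11699 tested genes with a window, in 49.7% of the 435 genes with a window among those called over 5-fold higher, and in 28.4% of the 563 among those called over 2-fold lower. A match is a description of letters and not a bound site. The windows of Aif1 (chr17:35176003-35176302, minus strand), Ccl12 (chr11:82101595-82101894, plus strand) and Fcgr3 (chr1:171059354-171059653, minus strand) are printed 5′ to 3′.
Aif1: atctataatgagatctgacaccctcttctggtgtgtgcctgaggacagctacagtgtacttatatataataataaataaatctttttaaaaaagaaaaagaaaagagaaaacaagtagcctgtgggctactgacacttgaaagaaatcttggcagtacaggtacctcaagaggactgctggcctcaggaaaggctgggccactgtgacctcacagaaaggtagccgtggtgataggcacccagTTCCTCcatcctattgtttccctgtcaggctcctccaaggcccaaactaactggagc
Ccl12: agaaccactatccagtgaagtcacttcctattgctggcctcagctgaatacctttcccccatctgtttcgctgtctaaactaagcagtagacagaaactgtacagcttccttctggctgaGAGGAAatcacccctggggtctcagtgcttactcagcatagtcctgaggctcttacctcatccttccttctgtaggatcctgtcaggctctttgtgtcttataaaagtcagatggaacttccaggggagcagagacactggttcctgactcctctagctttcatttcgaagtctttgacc
Fcgr3: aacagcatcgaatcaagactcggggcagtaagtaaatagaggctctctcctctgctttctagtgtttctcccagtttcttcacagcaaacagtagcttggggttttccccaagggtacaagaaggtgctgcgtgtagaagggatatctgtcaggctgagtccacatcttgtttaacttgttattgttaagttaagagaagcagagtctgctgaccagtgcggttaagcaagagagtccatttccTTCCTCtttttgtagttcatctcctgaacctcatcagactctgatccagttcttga

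The 12 most enriched transcripts included genes of macrophage identity, chemokines and Fc receptors. Sfpi1 (chr2:91096797-91115756, mm10) measured 374, 382, 269 and 318 normalised counts in the inputs of animals 266, 267, 270 and 507, and 7848, 7926, 6807 and 7703 in their positive fractions. Aif1, which encodes the microglial and macrophage protein Iba1, measured 188, 192, 70.4 and 192 in input and 3570, 4741, 1591 and 4807 in the positive fraction. For both genes every positive library lay above every input library. The log2 fold changes were 4.50 (SE 0.08, edgeR adjusted p = 9.65e-14) for Sfpi1 and 4.50 (SE 0.10, edgeR adjusted p = 3.22e-13) for Aif1. The chemokine gene Ccl12 reached 4.49 (SE 0.12), and the Fc receptor gene Fcgr3, which binds antibody-coated targets, 4.43 (SE 0.11). The other members of the 12 were Bcl2a1a (4.60), Ccl4 (4.60), Cd52 (4.51), BC035044 (4.51), Bin2 (4.50), Tnfaip8l2 (4.48), Susd3 (4.47) and Ly86 (4.46), where Ly86 encodes MD-1, the partner of the receptor CD180, and Cd52 a small leukocyte surface glycoprotein. Bcl2a1a has near-identical copies next to it, so its reads may be split between them.

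Microglial identity genes stood at the top of the comparison in inflamed brain. Of the study's microglia list, 238 of 239 genes were tested, 235 were higher in the positive fraction and 1 was lower (the kinase gene Sgk1, -0.62), with a median of 3.19 and animal medians of 2.93, 3.30, 3.27 and 3.23. A list of 26 homeostatic microglial genes had 24 higher, 0 lower and a median of 3.78. Cx3cr1 is the fractalkine receptor gene whose promoter drives the Cre recombinase that switches on the tag. It measured 807, 961, 470 and 999 in input and 11741, 16486, 9055 and 16022 in the positive fraction, a log2 fold change of 4.06 (SE 0.09). Tmem119, a microglial membrane protein gene, measured 427, 631, 422 and 599 in input and 6780, 11138, 7750 and 12398 in the positive fraction (4.18, SE 0.09). P2ry12, the purinergic receptor gene that is lost from the surface of activated microglia, measured 113, 143, 169 and 134 in input and 982, 1726, 2729 and 1754 in the positive fraction (3.63, SE 0.12). All 3 genes separated the fractions without overlap. C1qa, which encodes a chain of complement C1q, was at 4.20 and the growth factor receptor gene Csf1r at 4.03. The homeostatic genes that were not called were Upk1b, at 0.66 (SE 0.29, edgeR adjusted p = 0.0576), and Rtn4rl1, at -0.16. Without animal 266 Upk1b was called, at 0.83.

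Lineage transcription factors followed the same direction with 1 exception. Of 12 listed, 11 were tested, 10 were higher and 0 were lower, with a median of 3.18. Irf8, which acts with PU.1 in macrophages, measured 276, 307, 313 and 277 in input and 3644, 3752, 4169 and 3879 in the positive fraction (3.72, SE 0.07, edgeR adjusted p = 9.65e-14). Irf5 was at 4.04, Ikzf1 at 3.63 and Runx1 at 3.28, whereas Sall1, which marks microglia among macrophages, was at 1.47. Mef2c, which neurons express in quantity, had 9873, 7696, 8658 and 8449 normalised counts in input and 8030, 8022, 8151 and 9404 in the positive fraction. These ranges overlapped and the value of -0.04 (SE 0.08) was not called, with a sign that turned to 0.05 without animal 266.

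Genes of border-associated macrophages, which sit around vessels and in the meninges, were enriched too. All 13 listed were tested and called higher, with a median of 3.13. Mrc1, the mannose receptor gene, measured 110, 85.1, 91.9 and 88.2 in input and 898, 706, 1086 and 1009 in the positive fraction (3.29, SE 0.12). Lyve1, a hyaluronan receptor gene of perivascular macrophages, measured 83.7, 60.1, 59.6 and 68.4 in input and 126, 219, 140 and 323 in the positive fraction (1.51, SE 0.21). Neither gene overlapped between fractions. Cd163 was at 2.90, Pf4 at 3.39 and Cbr2 at 4.10. The summed level of 4 border macrophage markers lay between 306 and 374 in input and between 2201 and 3064 in the positive fraction, and their part in the level of genes shared with microglia was not tested.

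**Figure D2:**
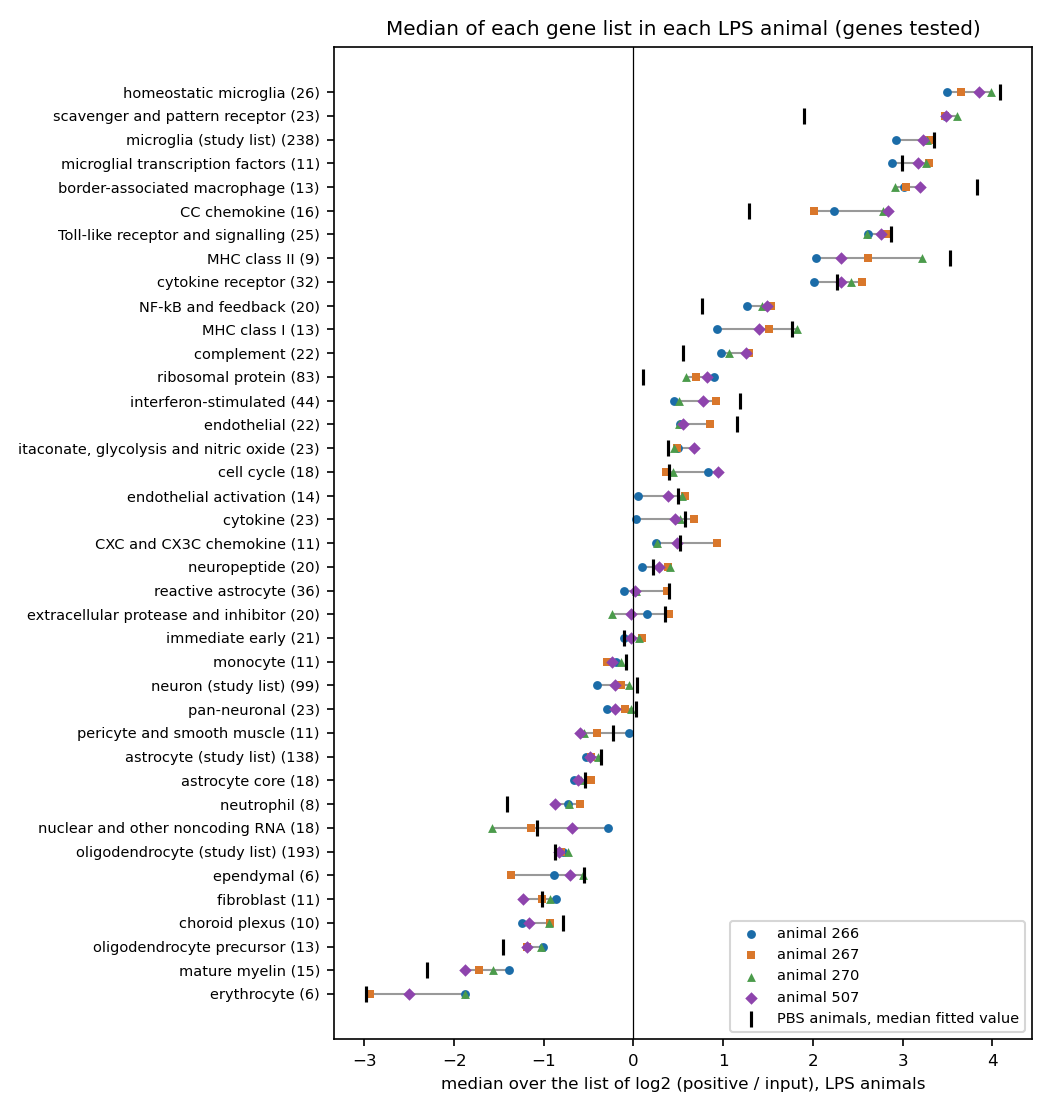
Median log2 ratio of positive to input over the genes of each list, with 1 symbol per LPS animal, and the median fitted value in PBS animals as a vertical tick. The number of genes tested is in parentheses, and lists with fewer than 5 tested genes are left out. Homeostatic microglial genes lie near 3.78, the study's neuron list near 0, and mature myelin and erythrocyte genes below -1.

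Genes of the machinery that senses LPS were mostly higher in the positive fraction. Of 26 listed Toll-like receptor and signalling genes, 25 were tested, 21 were higher, 1 was lower and the median was 2.71. Cd14, the LPS co-receptor, measured 439, 376, 350 and 417 in input and 5145, 5498, 6190 and 5881 in the positive fraction (3.84, SE 0.11). Tlr4 (chr4:66827811-66842796) measured 85.4, 64.8, 51.3 and 102 in input and 451, 451, 300 and 463 in the positive fraction (2.47, SE 0.13). Ly96, which encodes MD-2, measured 34.4, 33.3, 14.9 and 20.5 in input and 128, 181, 95.2 and 141 in the positive fraction (2.43, SE 0.22). No positive library of these 3 genes overlapped an input library. Tlr2, the receptor for bacterial lipoproteins, was higher still at 3.94 (SE 0.12), Tlr7 was at 3.75, Tlr13 at 3.76 and the adaptor gene Myd88 at 2.57 (SE 0.08). Tlr3, which senses double-stranded RNA, had 656, 550, 612 and 595 normalised counts in input and 709, 764, 654 and 685 in the positive fraction, and at 0.22 (SE 0.08) stayed below the fold threshold. Lbp, the gene of the LPS-binding protein that hands LPS to CD14, was the member called lower, with 799, 621, 549 and 693 in input and 358, 200, 251 and 292 in the positive fraction (-1.29, SE 0.11, edgeR adjusted p = 2.18e-07). Irak1 (0.18) and Traf6 (-0.29), kinase and ligase genes downstream of many receptors, were not called.

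NF-kB subunits and feedback genes were higher with 1 exception. Of 21 listed, 20 were tested, 19 were higher, 0 were lower and the median was 1.54. Tnfaip3, which encodes the NF-kB inhibitor A20, measured 427, 418, 272 and 383 in input and 2850, 2704, 2648 and 2530 in the positive fraction (2.85, SE 0.13). Nfkbiz, which encodes a nuclear IkB protein, measured 577, 543, 556 and 464 in input and 2068, 1567, 1521 and 1325 in the positive fraction (1.58, SE 0.14). Neither gene overlapped between fractions. The subunit genes Nfkb2 (2.53), Nfkb1 (2.00), Relb (1.57), Rel (1.40) and Rela (1.15) were all higher, and Socs1, at 0.37, was not called.

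Cytokine genes divided between fractions. Of 34 listed, 23 passed the filter, 11 were higher, 4 were lower and 8 were not called, with a median of 0.33. Genes of the interleukin-1 family lay on both sides. Il1a (chr2:129299610-129309972) measured 50.2, 30.5, 24.8 and 43.3 in input and 399, 587, 433 and 548 in the positive fraction (3.73, SE 0.21, edgeR adjusted p = 2.51e-09). Il1b measured 40.5, 42.6, 23.2 and 28.1 in input and 111, 269, 144 and 180 in the positive fraction (2.36, SE 0.26), and Il1rn, the receptor antagonist gene, was at 2.94 (SE 0.21). Il33 (chr19:29925114-29960715), an alarmin of the same family kept in the nuclei of glia and stroma, went the other way, with 1044, 1017, 979 and 869 in input and 347, 326, 354 and 372 in the positive fraction (-1.48, SE 0.10, edgeR adjusted p = 1.06e-08). The fractions did not overlap for Il1a, Il1b or Il33.

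Other cytokine genes of the tagged cells included Tnf (chr17:35199391-35201996), with 41.4, 57.4, 24.8 and 38 normalised counts in input and 299, 358, 171 and 251 in the positive fraction (2.74, SE 0.20). Osm, an interleukin-6 family ligand gene, measured 9.69, 9.25, 11.6 and 8.37 in input and 146, 86.7, 109 and 85.2 in the positive fraction (3.42, SE 0.31). Tgfb1 was at 3.19 (SE 0.08), Tnfsf13b, which encodes the B cell factor BAFF, at 3.38 and Ebi3 at 3.66. Il12a (-0.89) and 3 others were called lower. Il34, a ligand of the CSF-1 receptor, measured 1010, 912, 873 and 871 in input and 689, 661, 646 and 665 in the positive fraction (-0.46, SE 0.07), and Tgfb3 was at -0.79 (SE 0.10). Csf1, the other ligand of that receptor, was at -0.23 (SE 0.08), under the fold threshold, and was called under scaling by total count, at -0.39. Csf3, the granulocyte growth factor gene, measured 495, 598, 224 and 325 in input and 505, 1009, 323 and 462 in the positive fraction. Its ranges overlapped and its call, at 0.46 (SE 0.17, edgeR adjusted p = 0.026), was lost under scaling by total count (edgeR adjusted p = 0.126), without animal 267 (0.35, edgeR adjusted p = 0.176), without animal 270 (0.43, edgeR adjusted p = 0.0588) and without animal 507 (0.44, edgeR adjusted p = 0.0881). Its mean level in PBS animals was 7.55 normalised counts in both fractions.

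Receptor genes were mostly higher. Of 33 listed cytokine receptors, 32 were tested, 25 were higher, 3 were lower and the median was 2.53. Il1r2, the decoy receptor gene of interleukin-1, measured 103, 97.2, 151 and 85.2 in input and 336, 1147, 2963 and 1038 in the positive fraction (3.37, SE 0.31). The signalling receptor gene Il1r1 measured 420, 335, 394 and 332 in input and 299, 232, 304 and 181 in the positive fraction (-0.56, SE 0.12, edgeR adjusted p = 0.000811), and its partner Il1rap was at -0.96 (SE 0.10). Input exceeded positive in all 4 animals for Il1r1 and Il1rap, and positive exceeded input in all 4 for Il1r2. Both receptors for tumour necrosis factor were higher, Tnfrsf1b at 3.29 (SE 0.12) and Tnfrsf1a at 1.54 (SE 0.08). Among receptor genes of the interleukin-6 family, Il6ra was higher (2.74) and the others listed were not called. Osmr, which binds oncostatin M, had 1119, 515, 924 and 654 normalised counts in input and 903, 558, 634 and 501 in the positive fraction (-0.28, SE 0.11). It was called without animal 267, at -0.41. The shared subunit gene Il6st was at 0.19 (SE 0.09). Il12rb1, at -1.52, was the other receptor gene called lower.

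**Figure D3:**
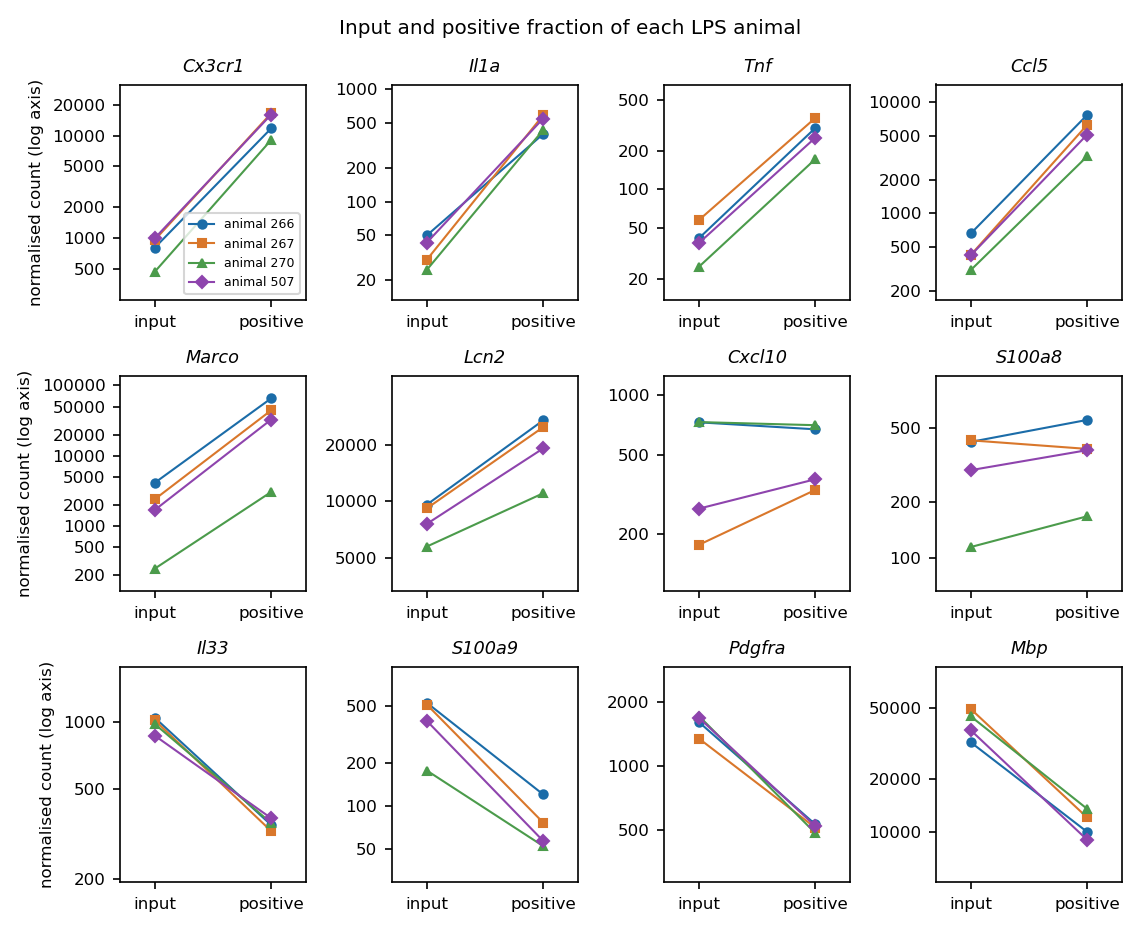
Normalised counts (log axes) of 12 genes in input and positive fraction, with 1 line per LPS animal. Lines rise for Cx3cr1, Il1a, Tnf, Ccl5, Marco and Lcn2, cross or stay level for Cxcl10 and S100a8, and fall for Il33, S100a9, Pdgfra and Mbp. Marco in animal 270 lies at 3058 in the positive fraction against 32642 to 65301 in the other animals.

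CC chemokine genes were mostly higher. Of 18 listed, 16 were tested, 11 were higher, 4 were lower and the median was 2.78, or 2.15 when only the LPS libraries were fitted. Ccl4 measured 11.5, 13, 6.62 and 7.6 in input and 455, 196, 130 and 211 in the positive fraction (4.60, SE 0.29). Ccl3 measured 245, 98.1, 22.4 and 90.5 in input and 3775, 1680, 443 and 1225 in the positive fraction (3.99, SE 0.12). Ccl5, which attracts T cells and monocytes, measured 661, 424, 310 and 421 in input and 7659, 6235, 3252 and 5099 in the positive fraction (3.60, SE 0.08). The fractions did not overlap for these 3 genes, although levels differed between animals and were lowest in animal 270. Ccl2, the monocyte chemoattractant gene, was enriched less, with 116, 86.1, 43.1 and 66.9 in input and 262, 258, 78.4 and 321 in the positive fraction (1.49, SE 0.21), and its ranges overlapped. Ccl19 measured 218, 217, 309 and 184 in input and 152, 89.9, 204 and 87.2 in the positive fraction (-0.85, SE 0.16). Ccl25 (-0.57, SE 0.19), Ccl28 (-0.50) and Ccl27a (-0.45) were the other CC genes called lower, and Ccl25 lost its call without animal 267 (-0.40, edgeR adjusted p = 0.1). Ccl genes lie in clusters of close relatives, so reads may be shared among them.

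CXC chemokine genes were called less often than CC genes. For comparison, 27.7% of all genes tested were called in each direction. Of 16 listed CXC and CX3C genes, 11 were tested, 5 were higher, 1 was lower and 5 were not called, with a median of 0.29. Cxcl16 measured 401, 370, 158 and 348 in input and 4968, 6142, 3100 and 6050 in the positive fraction (4.01, SE 0.14), and Cxcl13, the B cell chemoattractant gene, was at 4.13 (SE 0.28). Both lay without overlap between fractions. Cxcl10, an interferon-induced gene, had 731, 176, 733 and 268 normalised counts in input and 674, 333, 707 and 377 in the positive fraction (0.29, SE 0.15, edgeR adjusted p = 0.101), and was called without animal 266, at 0.43. Cxcl1, a neutrophil attractant gene, had 329, 391, 130 and 238 in input and 292, 747, 129 and 202 in the positive fraction (0.14, SE 0.27). Its sign rested on animal 267, without which it was -0.14, and turned to -0.02 under scaling by total count. Cxcl5, also a neutrophil attractant gene, measured 89.9, 90.7, 73.7 and 90.5 in input and 54.4, 53.3, 44.8 and 29.4 in the positive fraction (-0.94, SE 0.25). Cx3cl1, which encodes the neuronal ligand of CX3CR1, had 10906, 9964, 9378 and 11056 in input and 10224, 13822, 11197 and 12537 in the positive fraction (0.20, SE 0.08).

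**Figure D4:**
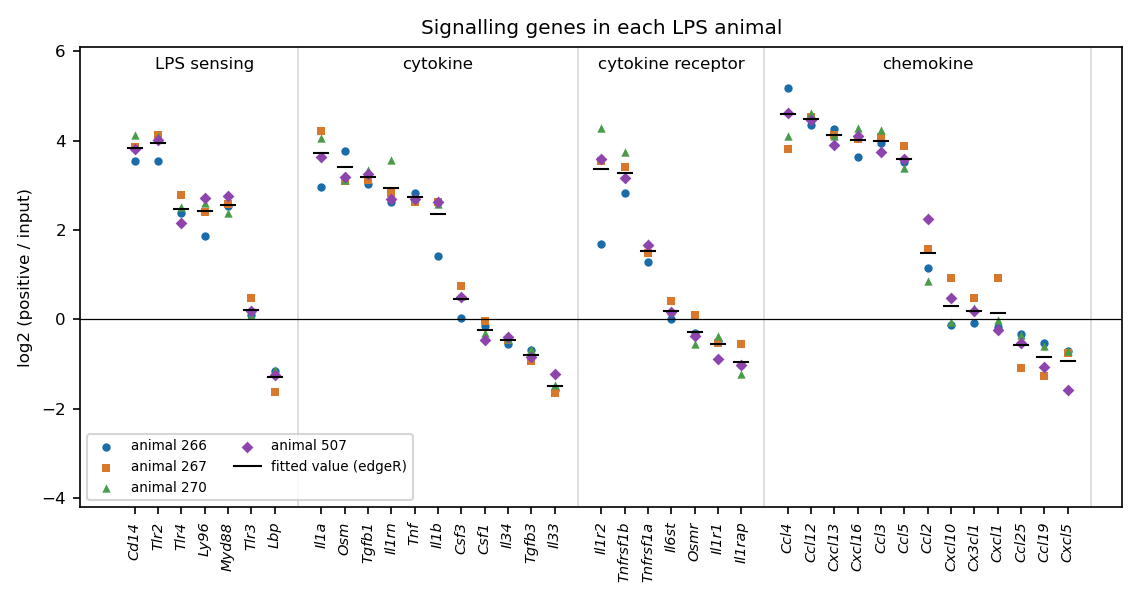
Log2 ratio of positive to input (pseudocount 1) for genes of LPS sensing, cytokines, their receptors and chemokines, with 1 symbol per LPS animal and edgeR's fitted value as a bar. Cd14, Il1a, Il1r2 and Ccl4 lie above 3 in the fit, whereas Lbp, Il33, Il1rap and Cxcl5 lie below 0 in all 4 animals.

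Interferon-stimulated genes were more often higher than lower in the positive fraction, where 27.7% of all genes tested were called in each direction. All 44 listed were tested, 28 were higher, 3 were lower and 13 were not called, with a median of 0.67. Oas1a, which makes an activator of RNase L, measured 56.4, 44.4, 20.7 and 45.6 in input and 426, 552, 157 and 452 in the positive fraction (3.21, SE 0.19). Bst2, the gene of the antiviral protein tetherin, measured 455, 539, 337 and 369 in input and 2467, 2690, 1669 and 2559 in the positive fraction (2.47, SE 0.15). Dhx58 (2.75), Psmb9 (2.47) and Parp14 (2.47) were also higher. Others overlapped between fractions. Ifit1 had 481, 341, 454 and 322 in input and 451, 414, 425 and 410 in the positive fraction (0.11, SE 0.11, and -0.05 under scaling by total count). Gbp3, a guanylate-binding protein gene, had 1365, 590, 993 and 767 in input and 1139, 591, 957 and 783 in the positive fraction (-0.07, SE 0.10). Iigp1, an immunity-related GTPase gene, fell, with 601, 226, 552 and 273 in input and 329, 143, 418 and 203 in the positive fraction (-0.59, SE 0.15), and its call was lost without pairing by animal (edgeR adjusted p = 0.134), with a sign that turned to 0.17 when the positive library of animal 271 was added. Mx2 (-0.62) and Stat2 (-0.34) were the other genes called lower. The Gbp, Ifit and Oas genes have close relatives with which reads may be shared.

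Antigen presentation genes were higher and complement genes were divided. Of 13 MHC class I genes listed and tested, 11 were higher and 0 lower (median 1.30), with B2m at 2.52 and H2-K1 at 2.16, and of 10 MHC class II and costimulatory genes listed, 9 were tested, 8 were higher and 0 lower (median 2.62), with Ctss at 4.05, Cd86 at 3.79 and H2-Aa at 2.39. H2 genes are near-identical in parts, so reads may be split among them. Of 26 complement genes listed, 22 were tested, 14 were higher, 6 were lower and the median was 1.20. Receptors and the C1q chains led, with C1qc at 4.26, C5ar1 at 3.99 and C3ar1 at 3.96. C3, the central component, measured 825, 694, 192 and 763 in input and 2499, 2047, 407 and 1793 in the positive fraction (1.38, SE 0.10), higher in each animal although the ranges overlapped. Serping1, which encodes the C1 inhibitor, measured 1117, 821, 674 and 913 in input and 558, 405, 303 and 385 in the positive fraction (-1.10, SE 0.09). C1s (-0.76), C1ra (-0.42) and Cd46 (-1.15) were lower too. C4b was called lower at -0.40 (SE 0.12), a call lost without animal 267 (-0.29, edgeR adjusted p = 0.0613) and without pairing by animal (edgeR adjusted p = 0.152).

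Pattern and scavenger receptors were among the strongest groups. Of 24 listed, 23 were tested, 22 were higher and 0 lower, with a median of 3.65. Marco (chr1:120474538-120505084), a scavenger receptor gene that binds bacteria, measured 4141, 2418, 250 and 1704 in input and 65301, 44169, 3058 and 32642 in the positive fraction (4.02, SE 0.15, edgeR adjusted p = 1.92e-11). Because animal 270 had low Marco in both fractions, its positive level lay below the input level of animal 266, while its own ratio of 3.61 was close to the 3.98 to 4.26 of the others. Trem1, an amplifier of inflammation on myeloid cells, measured 29.1, 25.9, 48.9 and 28.1 in input and 359, 299, 815 and 280 in the positive fraction (3.65, SE 0.18). Clec4n (4.43), Clec5a (4.42) and Trem2 (4.07) were higher, and Axl, at -0.12, was not called.

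Metabolic genes linked to macrophage activation were enriched in part. Of 25 listed genes of itaconate, glycolysis and nitric oxide metabolism, 23 were tested, 16 were higher and 2 were lower, with a median of 0.60. Irg1 (also called Acod1), whose enzyme makes itaconate, measured 239, 98.1, 33.9 and 98.1 in input and 2958, 1674, 490 and 1429 in the positive fraction (3.85, SE 0.15). The hexokinase genes divided, with Hk3 at 3.71 (SE 0.14), Hk2 at 3.11 (SE 0.08) and Hk1, the form neurons use, at -0.02 and not called. Pfkfb3, which makes an activator of glycolysis, measured 2129, 1583, 1987 and 1956 in input and 9156, 6855, 8564 and 6185 in the positive fraction (2.00, SE 0.08). Ido1 (-1.47) and the lactate transporter gene Slc16a1 (-0.52) were lower. Of 21 cell cycle genes listed, 18 were tested, 10 were higher and 2 lower (median 0.59), and the replication licensing gene Mcm3 was highest at 2.87 (SE 0.11), while Mki67, at -0.40, was not called. Of 21 extracellular protease and inhibitor genes listed, 20 were tested, 7 were higher and 7 lower, near the 27.7% of all genes called in each direction. Plau (2.33) and Mmp14 (2.27) were higher, Mmp3 (-0.91) and Timp4 (-0.73) were lower, and the median of 0.07 turned to -0.09 under scaling by total count and to -0.02 without animal 267.

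Oligodendrocyte genes had the lowest median of the study's 4 lists. Of the 194 genes on the study's oligodendrocyte list 193 were tested, 144 were lower, 13 were higher and the median was -0.77. Among 15 mature myelin genes 14 were lower and 1 higher, with a median of -1.72. Ermn, a cytoskeletal gene of myelinating cells and the most depleted gene by rank, measured 1262, 1598, 1023 and 1471 in input and 211, 191, 186 and 183 in the positive fraction (-2.78, SE 0.15, edgeR adjusted p = 1.22e-09). Mbp, which encodes myelin basic protein, measured 32136, 49580, 45073 and 37587 in input and 10017, 12083, 13524 and 9034 in the positive fraction (-1.88, SE 0.09). Neither gene overlapped between fractions, and Mbp remained at 9034 or more in every positive library. Mog was at -1.77 and Opalin at -2.09. Cldn11 (-2.23), Gjb1 (-2.15), Aspa (-2.07), Klk6 (-2.67), Sec14l5 (-2.24) and Anln (-2.13) were among the 12 most depleted. So was Zbed6 (-2.17), a gene outside the oligodendrocyte and mature myelin lists. Trf, the transferrin gene that oligodendrocytes express in quantity, was the mature myelin gene that rose. It had 10569, 12202, 10408 and 9843 in input and 13335, 17090, 19041 and 16931 in the positive fraction (0.62, SE 0.11). Oligodendrocyte precursor genes had 10 lower and 0 higher of 13 (median -1.16). Pdgfra measured 1607, 1346, 1716 and 1684 in input and 535, 516, 487 and 525 in the positive fraction (-1.62, SE 0.08), without overlap.

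Astrocyte genes were reduced by less. The study's list of 138 genes had 94 lower, 6 higher and a median of -0.47, and 18 core astrocyte genes had 13 lower, 1 higher and a median of -0.60. Gfap, the intermediate filament gene, measured 33766, 35574, 23644 and 32629 in input and 26638, 28498, 17688 and 23802 in the positive fraction (-0.38, SE 0.09), lower in each animal with overlapping ranges. Aqp4, the water channel gene, was at -0.57 (SE 0.08). Slc1a2, the main glutamate transporter gene, was the core gene that rose, with 58340, 53330, 57051 and 57899 in input and 68973, 73768, 68434 and 79854 in the positive fraction (0.36, SE 0.07). It lost its call under scaling by total count, at 0.20.

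Genes known from reactive astrocytes did not move as a group. Of 37 listed, 36 were tested, 13 were higher, 11 were lower and 12 were not called, and the median of 0.13 turned to -0.04 under scaling by total count. Among all genes tested, 27.7% were called in each direction. Lcn2 (chr2:32384637-32387739), which encodes the siderophore-binding protein lipocalin 2 and is made by astrocytes, endothelium and myeloid cells, measured 9629, 9202, 5778 and 7615 in input and 26836, 24709, 11049 and 19073 in the positive fraction (1.29, SE 0.16, edgeR adjusted p = 9.86e-06). Its positive libraries all lay above its input libraries. In PBS animals its mean was 180 in input and 258 in the positive fraction. Serpina3n, another gene of reactive astrocytes, measured 12727, 10731, 7607 and 11321 in input and 7452, 9328, 5340 and 6921 in the positive fraction (-0.55, SE 0.10). Its mean in PBS animals was 500 in input and 509 in the positive fraction. Listed members that were higher by more included Cd14 and Srgn (3.60), which macrophages also express, and Psmb8 (2.31). Steap4 (-0.80), Cd109 (-0.80), Fbln5 (-0.80) and Timp1 (-0.56) were lower.

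Neuronal genes lay near their input level. The study's neuron list of 99 genes had 37 lower, 13 higher and a median of -0.18, and of 24 pan-neuronal genes listed 23 were tested, 6 were lower and 4 higher (median -0.22). The pan-neuronal counts were not above the 27.7% of all genes called in each direction. Snap25, a synaptic vesicle fusion gene, had 68549, 68067, 70508 and 64334 in input and 48163, 57572, 68485 and 54882 in the positive fraction. At -0.26 (SE 0.07) it was below the fold threshold, and it was called without animal 270 (-0.33), on the deposited log2 values (-0.34) and under scaling by total count (-0.42). The 4 higher genes were Gad1, whose enzyme makes GABA, at 0.55 (SE 0.07), Gad2 at 0.40, Slc32a1 at 0.39 and Slc17a7 at 0.34, and Grin2a was lowest at -1.26. Of 22 neuropeptide genes listed 20 were tested, 9 were higher and 4 lower, with a median of 0.18. Vip (chr10:5639218-5647614), the vasoactive intestinal peptide gene, measured 602, 545, 555 and 617 in input and 1955, 2032, 2355 and 2502 in the positive fraction (1.93, SE 0.09, edgeR adjusted p = 2.81e-10). Crh was at 1.49, Pnoc at 1.01 and Npy at 0.82, whereas Tac1 (-0.81) and Nmb (-1.05) were lower. Of 21 immediate early genes 8 were higher and 6 lower (median -0.14), near the 27.7% of all genes called in each direction. Junb (0.95) and Ier2 (1.81) were higher, and Npas4 (-1.03) and Egr1 (-0.56), which follow neuronal activity, were lower.

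Vascular cells differed by type. Of 22 endothelial genes, 16 were higher, 1 was lower and the median was 0.61. Cldn5, the tight junction gene of the blood-brain barrier, measured 1007, 1500, 1144 and 1146 in input and 1658, 2688, 1827 and 1702 in the positive fraction (0.70, SE 0.06), and Pecam1, which leukocytes share, was at 0.95 (SE 0.08). Both lay without overlap. Mfsd2a, the lipid transporter gene of the barrier, was the gene that fell (-0.58, SE 0.10), and this call was lost without pairing by animal (edgeR adjusted p = 0.0575). Of 14 genes of endothelial activation 7 were higher and 1 was lower, the Il1r1 described above (median 0.35). Vcam1, an adhesion molecule gene, measured 1039, 988, 656 and 868 in input and 3312, 2984, 1227 and 3020 in the positive fraction (1.50, SE 0.16), and Icam1 was at 1.82. Sele, the E-selectin gene of activated endothelium, had 115, 78.7, 19.9 and 128 in input and 104, 103, 29.9 and 71 in the positive fraction (-0.06, SE 0.31), and was at 0.24 without animal 507. Fibroblast genes were all lower, 11 of 11, with a median of -1.09 and Col1a1 at -1.23 (SE 0.16). Of 13 pericyte and smooth muscle genes listed, 11 were tested, 5 were lower and 2 higher (median -0.33), with Pdgfrb at -0.73.

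Choroid plexus and ependymal genes were lower as well, with 8 lower and 0 higher of 10 (median -1.11) and 5 lower and 0 higher of 6 tested and 8 listed (median -0.90). Ttr, the transthyretin gene of the choroid plexus, measured 17525, 21643, 18845 and 16954 in input and 5976, 5648, 8118 and 4958 in the positive fraction (-1.62, SE 0.13). Blood cell transcripts stood out among the most depleted. Hbb-b1, Beta-s and Hba-a1, globin genes of red cells with near-identical copies, were at -2.76 (SE 0.24), -2.78 (SE 0.28) and -2.34 (SE 0.20), and of 9 erythrocyte genes listed 6 were tested and 5 were lower (median -2.27). Under limma on the deposited log2 values, Beta-s (-2.88, limma adjusted p = 0.115) and Hbb-b1 (-2.92, limma adjusted p = 0.191) were not called.

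Neutrophil genes that passed the filter were mostly lower in the positive fraction. Of 16 neutrophil genes listed only 8 passed the filter, 5 were lower and 1 higher, with a median of -0.71. S100a9 (chr3:90692633-90695691), which encodes a calcium-binding alarmin of neutrophils, measured 523, 508, 176 and 391 in input and 120, 76.3, 52.3 and 56.8 in the positive fraction (-2.36, SE 0.23, edgeR adjusted p = 9.83e-07). Retnlg was at -2.22 (SE 0.34), and Chi3l3, which monocytes and neutrophils both express, at -2.68 (SE 0.28). Fractions did not overlap for these 3 genes. Ngp, a granule protein gene, was called lower at -0.65 (SE 0.22) with the pairing and not without it (edgeR adjusted p = 0.406), nor without animal 266 (-0.61, edgeR adjusted p = 0.0569) or animal 507 (-0.56, edgeR adjusted p = 0.0915). S100a8, whose protein pairs with that of S100a9, had 421, 429, 115 and 297 in input and 552, 386, 168 and 380 in the positive fraction. At 0.27 (SE 0.16, edgeR adjusted p = 0.139) it was not called and its ranges overlapped, unlike S100a9. The neutrophil surface gene Ly6g was at or below 3 normalised counts on average in both fractions. Csf3r, the receptor gene of the granulocyte factor, was the member that was higher (2.48), and microglia express it too. Of 15 monocyte genes listed 11 were tested, 3 were higher and 3 lower (median -0.16), near the 27.7% of all genes called in each direction. Ly6c2 was at 1.19 and Vcan at -1.56, and Ccr2, at -0.06, was not called. Of 15 lymphocyte genes listed only Cd79b passed the filter, at 4.32, and microglia also express that gene.

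Noncoding RNAs, several of them kept in the nucleus, were lower in part. Of 20 noncoding genes listed 18 were tested, 12 were lower and 0 higher, with a median of -0.75 and animal medians of -0.28, -1.14, -1.58 and -0.68. Meg3, a long noncoding RNA of neurons, measured 127201, 124208, 143939 and 131785 in input and 73948, 39779, 45774 and 51995 in the positive fraction (-1.36, SE 0.14). Snhg11 measured 63360, 55106, 68852 and 62928 in input and 46987, 12678, 14117 and 27693 in the positive fraction (-1.51, SE 0.27). Both were lower in every animal, by least in animal 266. Malat1, retained in nuclear speckles, had 25629, 29405, 33706 and 21714 in input and 49940, 8757, 11919 and 20090 in the positive fraction (-0.61, SE 0.39, edgeR adjusted p = 0.181). It was higher in the positive fraction of animal 266, and without that animal it was called, at -1.13. The positive library of animal 266 also had the lowest share of the microglia list, at 3.79%, and its part in this pattern was not tested.

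Genes of cytosolic ribosomal proteins were higher as a set of small changes. Of 86 listed 83 were tested, 77 were higher, 0 were lower and the median was 0.77, between 0.59 and 0.90 in single animals. They held between 1.41% and 1.64% of counts in input and between 1.97% and 2.38% in the positive fraction. Rpl10a measured 3436, 3785, 3742 and 3414 in input and 11583, 12629, 12203 and 10695 in the positive fraction (1.71, SE 0.07), without overlap. The NuTRAP reporter encodes a tagged copy of this protein, and reads of the reporter and of the gene cannot be told apart here. Rpl39l, the paralogue with the largest value, was at 3.41, and Rps14, at 0.28, was not called.

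The same contrast in the 4 PBS animals called 6675 genes (45%). Tested as the difference of log2 fold changes between LPS and PBS animals, 1916 of 14818 genes (12.9%) were called, 1336 (9.02%) with a higher and 580 (3.91%) with a lower value in LPS animals. The count rested on the pairing, since 925 genes were called without it, and on animal 507, without which 1241 were called. Of genes called in both treatments, 2673 were higher in both, 2728 were lower in both and 43 changed direction. The most positive difference was that of 1810033B17Rik (4.56). Irg1 followed, at 3.85 in LPS and -0.42 in PBS animals (difference 4.27, SE 0.40), with mean levels in PBS animals of 12.1 in input and 9.13 in the positive fraction. Trem1 (3.64), Marco (3.59), Il1r2 (3.46), Postn (3.37), Ccl5 (3.25) and the formyl peptide receptor gene Fpr2 (3.19) completed the 8 largest. Mean levels in PBS animals were low for 1810033B17Rik (22 in input, 12 in the positive fraction), Trem1 (5.84, 5.99), Il1r2 (14.4, 13.5) and Fpr2 (11.4, 10.7). The PBS fold changes of 1810033B17Rik, Irg1, Trem1, Il1r2 and Fpr2 thus rested on few counts. Postn, which encodes the matrix protein periostin, measured 207, 167, 141 and 183 in LPS input and 2000, 2326, 1966 and 2381 in the LPS positive fraction, against means of 72.6 and 86.3 in PBS animals.

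**Figure D5:**
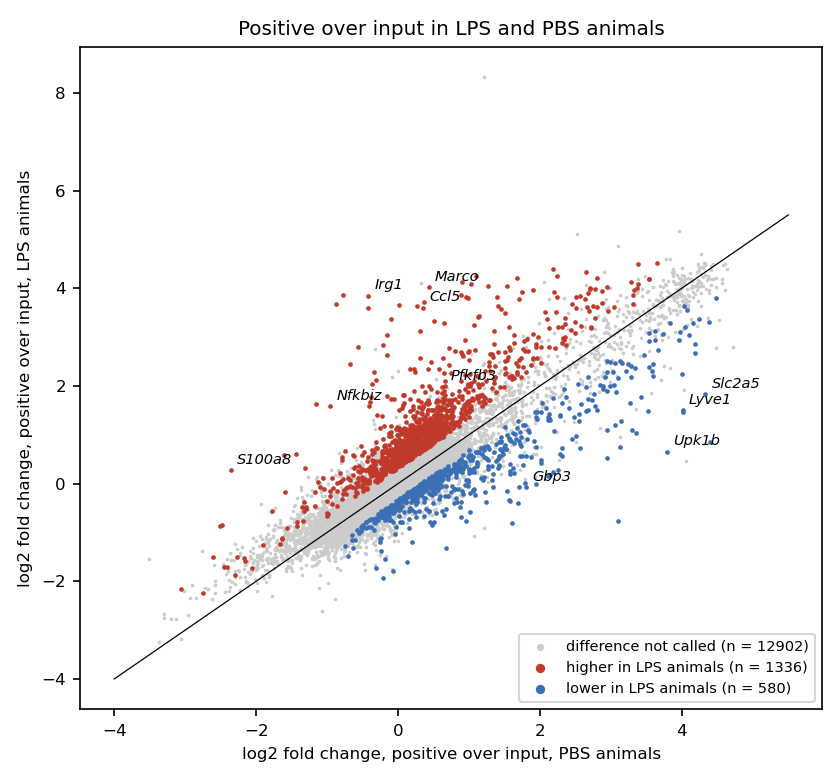
Fitted log2 fold change of positive over input in PBS animals (horizontal) and LPS animals (vertical), with 1 point per gene and the line of equality. Red marks 1336 genes with a called higher value in LPS animals, such as Irg1, and blue 580 with a called lower value, such as Upk1b.

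Several signalling genes had a higher fold change in LPS animals. Nfkbiz was at 1.58 in LPS and -0.95 in PBS animals, called in both, a difference of 2.54 (SE 0.21, edgeR adjusted p = 6.09e-06). Il1rn (difference 1.99), Il1b (1.78), Tnf (1.65) and Tnfaip3 (1.51) were also called. Without pairing by animal, however, the edgeR adjusted p was 0.0861 for Il1rn, 0.0697 for Il1b and 0.089 for Tnf. The Il1b call was also lost without animal 267, 268, 270, 272, 273, 506 or 507 (edgeR adjusted p 0.0536 to 0.17). That of Tnf was lost without animal 266, 272 or 507, and that of Il1rn without animal 506. Mean levels in PBS animals were low for Il1rn (6.71 in input, 13 in the positive fraction), Il1b (6.83, 10.4) and Tnf (5.15, 11.2). The PBS fold changes of Il1rn, Il1b and Tnf thus rested on few counts. For Il1a the fold changes of 3.73 and 2.90 did not differ past the threshold (0.82, SE 0.35, edgeR adjusted p = 0.136). Among lists, the scavenger and pattern receptors had a median of 3.65 in LPS and 1.90 in PBS animals, with 9 called differences higher and 2 lower. NF-kB genes had medians of 1.54 and 0.76 and 11 higher differences of 20, and ribosomal protein genes had medians of 0.77 and 0.11 and 76 higher differences of 83. S100a8 was at -2.35 in PBS animals, a difference of 2.63 (SE 0.29), whereas S100a9 was at -2.62 and its difference of 0.26 (SE 0.39) was not called.

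Other genes had a lower fold change in LPS animals. Upk1b, at 3.79 in PBS animals, had the most negative difference (-3.13, SE 0.37, edgeR adjusted p = 0.00012), with means in the positive fraction of 457 in PBS and 31.6 in LPS animals. Hpgd (-2.56), Lyve1 (-2.50), the fructose transporter gene Slc2a5 (-2.49), Lsp1 (-2.04), Myom1 (-1.95), Gbp3 (-1.87) and Arap3 (-1.86) completed the 8 lowest, and that of Lsp1 was not called without the pairing (edgeR adjusted p = 0.099). Hpgd, whose enzyme inactivates prostaglandins, measured 189, 192, 173 and 166 in LPS input and 357, 524, 554 and 562 in the LPS positive fraction, against means of 146 and 2369 in PBS animals. Gbp3 had means of 98 in PBS and 929 in LPS input, and of 338 and 868 in the positive fractions. Interferon-stimulated genes had medians of 0.67 in LPS and 1.19 in PBS animals, with 16 called differences lower and 4 higher. Endothelial genes were at a median of 0.61 in LPS and 1.16 in PBS animals, with 13 of 22 differences called lower, of which Cldn5 was -0.82 (SE 0.09) with the pairing and not called without it (edgeR adjusted p = 0.0812). Mature myelin genes were less depleted in LPS animals, at -1.72 against -2.30, with 8 of 15 differences called higher. Those of Mbp, Cldn11 and Gjb1 were not called without the pairing (edgeR adjusted p = 0.407, 0.065 and 0.144). The calls of Mbp and Gjb1 were also lost when animal 266, 270, 272 or 273 was left out, and that of Cldn11 without animal 273. Mean input levels in PBS and LPS animals were 60863 and 41094 for Mbp, 4913 and 3747 for Cldn11, and 530 and 195 for Gjb1. Mean positive levels were 12316 and 11164 for Mbp, 728 and 799 for Cldn11, and 61.8 and 43.2 for Gjb1. The study's neuron list moved from 0.04 in PBS to -0.18 in LPS animals with 20 of 99 differences called lower.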

How the data were processed

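RNA-seq was made from input and TRAP-positive fractions of mouse hemispheres. The authors' deposited table (mm10) gives 36172 genes as estimated counts, 81.1% of whose nonzero values are not whole (tolerance 0.001), and log2 values deposited by the authors, which equal log2 of the count over a size factor minus the Input PBS median (median absolute difference 3.3e-07). Counts were rounded. 

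Size factors were recomputed as medians of ratios over the 16 libraries of animals with both fractions. Genes with more than 20 normalised counts in every library of at least 1 group were tested (14818) with edgeR 4.0.16 (quasi-likelihood, R 4.3.3), with animal as a block. Calls needed a Benjamini-Hochberg adjusted p under 0.05 and a fold change over 1.25. Both fractions of a replicate come from the same animal, and their deviations from the group means correlated at 0.17 to 0.553. Replicates within a group are separate animals, and so are the LPS and PBS groups. Per-animal ratios used a pseudocount of 1.

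The comparison, 40 gene lists (4 from the study, taken from published sorted cells, and 36 from general knowledge) and the named genes were chosen with earlier results of these data known. Named genes were list members given by role, the 12 most and 12 least enriched genes called in the same direction in all 4 animals (mean normalised count of 100 or more), and the 8 most positive and 8 most negative called differences. Steps were tested on simulated data. Alternatives were limma 3.58.1, DESeq2 1.42.0, other scalings and filters, no block, and animals left out. A count of 3 is between 8.54e-06% and 1.25e-05% of an LPS library, which covers counting error only. Some single genes are not reported here.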

Additional observations from a re-analysis of the deposited data

Results flagged for a closer look

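In 168 sets of 4 animals, 1 animal stood apart from the other 3 in its log2 ratio of positive to input in 8, where chance gives about 1 in 20. Animal 266 had 1.43 for Il1b against 2.58 to 2.63, 3.78 for Osm against 3.10 to 3.20, and -0.63 for Col1a1 against -1.48 to -1.34. Animal 507 had -1.59 for Cxcl5 against -0.76 to -0.71, and 1.66 for Pfkfb3 against 2.10 to 2.11. Animal 270 had 3.28 for Tnfaip3 against 2.69 to 2.73, and a median of 3.61 over the scavenger and pattern receptors against 3.47 to 3.49. Animal 267 had a median of 0.85 over the endothelial list against 0.51 to 0.55.

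The positive library of LPS animal 271, which entered no paired comparison, held 4.09% of its counts in the study's microglia list, against 0.56% to 0.64% in the inputs of PBS animals, and lay within the 3.79% to 4.54% of the other positive LPS libraries.

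Named genes included the 8 most positive and 8 most negative called differences, so their share of calls was partly fixed by the choice. Among all 14818 tested genes a difference was called for 12.9%. Of 128 named genes, 49 had a called difference between the log2 fold changes of LPS and PBS animals (edgeR, interaction of fraction and treatment). Of these calls, 25 were lost without pairing by animal, namely those of Cd52, Ccl12, Cldn11, Gjb1, Lsp1, Rtn4rl1, Mrc1, Tlr3, Myd88, Tnf, Il1b, Il1rn, Ccl3, Ifit3, Iigp1, Oas1a, Lcn2, Serpina3n, C3, C4b, Cldn5, Pecam1, Mbp, Vip and Mcm3. The call of Lcn2 was also lost with DESeq2 (DESeq2 adjusted p = 0.103), limma, the deposited log2 values and scaling by total count. It was lost too without animal 266, 267, 268, 272, 273 or 507. The call of Mrc1 was lost with TMM scaling (edgeR adjusted p = 0.0523), another expression filter, limma and the deposited log2 values. It was lost too without animal 266, 267, 268, 272, 273, 506 or 507. Among microglia and border macrophage genes and the genes ranked with them the difference was 0.86 for Cd52, 1.11 for Ccl12, -0.53 for Mrc1, -2.49 for Slc2a5, -3.13 for Upk1b, -2.56 for Hpgd, -2.50 for Lyve1 and -2.04 for Lsp1. Among genes of sensing and signalling it was 1.07 for Tlr2, -0.52 for Tlr3, 0.61 for Myd88, 1.51 for Tnfaip3, 2.54 for Nfkbiz, 1.65 for Tnf, 1.78 for Il1b, 1.99 for Il1rn, 3.46 for Il1r2 and -0.55 for Tnfrsf1a. Chemokine and pattern receptor genes gave 1.21 for Ccl3, 3.25 for Ccl5, 1.31 for Cxcl16, 3.59 for Marco, 3.64 for Trem1 and 3.19 for Fpr2. Interferon and complement genes gave -0.44 for Ifit3, -1.60 for Iigp1, 0.96 for Oas1a, -1.87 for Gbp3, 0.80 for C3 and -0.89 for C4b. Genes from the lists of glial, vascular, neuronal and neutrophil markers gave 0.83 for Lcn2, -0.57 for Serpina3n, -0.82 for Cldn5, -0.78 for Pecam1, 0.42 for Mbp, 0.52 for Cldn11, 0.91 for Gjb1, -0.41 for Vip and 2.63 for S100a8. The remaining values were -0.46 for Rtn4rl1, which was called in neither treatment, 4.56 for 1810033B17Rik, 4.27 for Irg1, 3.37 for Postn, 1.34 for Pfkfb3, 0.55 for Mcm3, 0.65 for Rpl10a, -1.95 for Myom1 and -1.86 for Arap3.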

How the results depend on the processing

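For 128 single genes recomputed under 19 settings, 2376 of 2431 values kept direction and side of the threshold, 28 lost the call, 13 gained it and 14 reversed. Many of these genes were named for large values in the main fit, so their agreement was partly fixed by the choice. Gene-by-gene agreement over all tested genes is not given. Of the 49 differences, 734 of 882 values kept their call and 148 lost it, and 23 of the 49 kept it under every setting run. Without the replicate block, 7613 genes were called in LPS animals against 8200, while the difference between treatments fell from 1916 to 925 genes, or to 1018 when the positive library of animal 271 was added. It was 922 without animals 506 and 507, and leaving out 1 animal at a time gave 1241 (without 507) to 2210. The pairing also decided the calls of Csf3, Iigp1, C4b, Mfsd2a and Ngp. Leaving out 1 animal gave 7706 to 8198 called genes, 3950 to 4204 higher, 3756 to 4087 lower, 550 to 589 over 5-fold higher and 660 to 945 over 2-fold lower. List medians then ran from 3.15 to 3.29 for microglia, -0.48 to -0.44 for astrocytes, -0.82 to -0.76 for oligodendrocytes and -0.23 to -0.11 for neurons.

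Scaling by total count moved the median gene by -0.16, which gave 1176 genes over 2-fold lower against 749 and list medians of -0.63 for astrocytes, -0.35 for neurons and -0.93 for oligodendrocytes. The deposited log2 values gave -0.56 for astrocytes and -0.86 for oligodendrocytes, and no block with animal 271 gave -0.82 for oligodendrocytes. Some signs reversed. Under total count these were Cxcl1 (-0.02), Ifit1 (-0.05), the reactive astrocyte list (-0.04) and the protease list (-0.09, and -0.02 with deposited log2 values). With animal 271 and no block they were Gbp3 (0.06), Ifit3 (0.07) and Iigp1 (0.17, where the paired value of -0.59 had been called). Leaving out 1 animal, Cxcl1 ran from -0.14 (without 267) to 0.27, Sele from -0.22 to 0.24 (without 507, and the same without 506 and 507) and the protease list from -0.02 (without 267) to 0.14, and without 266 Mef2c was 0.05. Myom1 was 0.01 with TMM and without the block, 0.00 with the LPS libraries alone, 0.02 without 266 and 0.16 without 267. Beyond the shift of scaling and the smaller number of animals, the cause was not tested.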
